A study of Arabidopsis thaliana with 24 samples.

Results

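The signals of 5 nuclear genes of the photosynthetic apparatus are described: PSAN and PSAE-1 of photosystem I, PSBY and PSBW of photosystem II, and RCA for Rubisco activase. They were taken by gene symbol from the probe annotation, and each was paired with 1 probe set, so the account rests on 5 of the 22810 probe sets of the array and on 5 of the 15085 that were bright enough to be tested. The probe sets are 247320_at for PSAN (locus AT5G64040), 253738_at for PSAE-1 (AT4G28750), 245195_at for PSBY (AT1G67740), 267526_at for PSBW (AT2G30570) and 245061_at for RCA (AT2G39730). Arabidopsis thaliana seedlings were harvested whole, with root, hypocotyl and cotyledon together, after 4 days of growth in darkness. There were 4 genotypes, namely wild type (WT), the phytochrome mutants phyA and phyB, and phyAphyB, which carries both mutations. Within each genotype, 3 samples stayed dark and 3 were given red light of 680 nm for 1 h at a fluence rate of 8 µmol per square metre and second, which makes 8 groups and 24 arrays. The sources used here name neither the mutant alleles nor the strain of each line, so an effect of a mutation and one of a line's background cannot be told apart.

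Phytochromes are photoreceptors that red light activates and far-red light switches off. Phytochrome A is the form that builds up in dark-grown seedlings and is lost quickly in light, and phytochrome B is the more stable form that dominates later responses to red light. Dark-grown seedlings hold etioplasts in place of chloroplasts, and on illumination the nuclear photosynthesis genes are transcribed, their products are imported into the plastid, and the photosystems are assembled in the thylakoid membrane.

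Each value is a MAS5 signal, a linear measure of hybridization made by the submitters and scaled to the same trimmed mean on every array, and differences between groups are on the log2 scale with the SE from limma. A difference was called at a Benjamini-Hochberg adjusted p under 0.05 over all 15085 tested probe sets. The median signal was 169.8 to 195.1 across arrays, and arrays of a group correlated with each other at 0.954 to 0.981. On dark phyA replicates 2 and 3 the 25S ribosomal RNA control gave signals of 10507.9 and 13573.9, beside 46.8 to 450 elsewhere. Some of the values that rest on those arrays are therefore also given without them, and the others only with them. Leaving both out keeps replicate 1 as the only dark phyA array. Of the tissue markers with a probe set, PORB of protochlorophyllide reduction read 3675 to 9537 and the seed lipid gene ICL 8497 to 22189, above the array's 40th percentile on 24 of 24 arrays. PORA, the other marker planned for the etiolated state, had no paired probe set. The root hair gene EXPA18 passed that level on 10 arrays and EXPA7 on 1. The other root markers planned had no paired probe set, so the share of root tissue was not gauged. In RNA of whole seedlings, fewer cells of a type and less RNA per cell cannot be told apart.

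All 5 genes were bright on every array. PSAN ranked between the 89.8 and 95.9 percentile of its array, PSAE-1 between 88.1 and 96.5, PSBY between 94.4 and 97.9, PSBW between 96.1 and 98.1, and RCA between 95.7 and 98.4. The residual SD within groups on the log2 scale was 0.18 for PSAN, 0.21 for PSBW and PSBY, 0.22 for RCA and 0.30 for PSAE-1, beside a median of 0.21 over all tested probe sets. PSAE-1 was thus the least and PSAN the most precisely measured of the set. When the 8 group means of a gene were put in order, the arrays of all 7 neighbouring pairs overlapped, in each of the 5 genes.

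**Figure D1:**
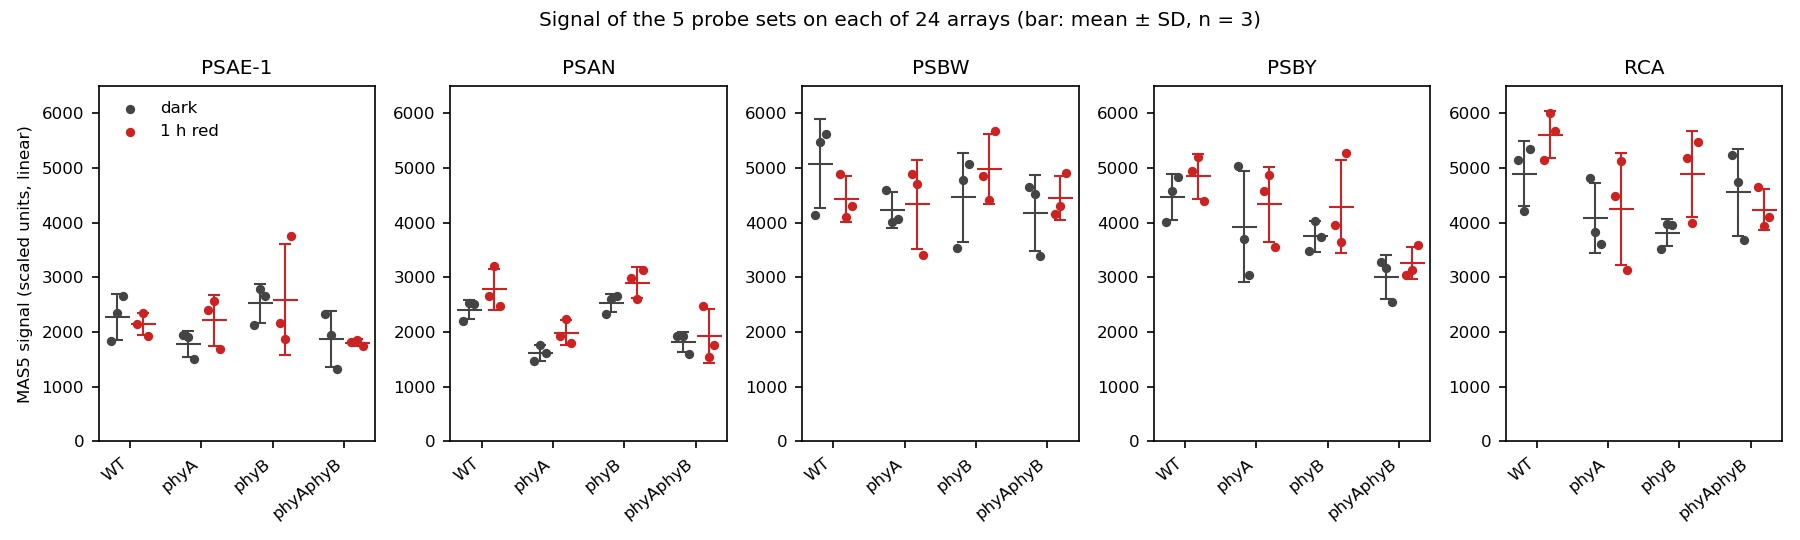
Each point is the MAS5 signal of a probe set on 1 array (linear scaled units), dark in grey and 1 h red in red, and bars give the mean and SD of 3 arrays. PSAN was low in phyA and phyAphyB in both light conditions (group means 1614 to 1989 against 2409.7 to 2903 in WT and phyB), and PSBY was lowest in phyAphyB (means 3003 dark and 3255 red).

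A test for any difference among the 8 groups passed for 2 of the 5 genes, PSAN (F = 9.73, limma adjusted p = 0.000103) and PSBY (F = 4.40, adjusted p = 0.012). That test passed for 34.7% of all tested probe sets, so 2 of 5 is near the background share. RCA (F = 2.46, adjusted p = 0.108), PSAE-1 (F = 1.74, 0.249) and PSBW (F = 0.853, 0.651) did not pass. For RCA the limma adjusted p was 0.0474 without phyA red replicate 3, and it ranged from 0.0474 to 0.251 over the alternatives.

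PSAN encodes a small subunit on the lumenal side of photosystem I that helps plastocyanin deliver electrons. In darkness its signals were 2201, 2524 and 2504 in WT and 1476, 1761 and 1606 in phyA. In phyB they were 2335, 2601 and 2656, and in phyAphyB 1927, 1919.5 and 1602. The dark arrays of both lines that carry the phyA mutation thus lay below every dark array of WT and phyB. After 1 h of red light the signals were 2661, 3199.8 and 2482 in WT and 1934, 2240.3 and 1792 in phyA. In phyB they were 2979, 2595 and 3136, and in phyAphyB 2472.5, 1541 and 1762. Of the 12 arrays of lines with the phyA mutation, 10 lay below all 12 arrays of WT and phyB, the exceptions being phyA red replicate 2 and phyAphyB red replicate 1. The median was 1777 over the former 12 arrays and 2598 over the latter. The share of all tested probe sets that separate these arrays as far, in the dark or over both conditions, was not computed. These counts are therefore descriptions only.

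Averaged over dark and red, PSAN was 1.44-fold lower in phyA than in WT (log2 -0.53 ± 0.10, n = 6 against 6, limma adjusted p = 0.00148) and 1.40-fold lower in phyAphyB (-0.48 ± 0.10, adjusted p = 0.000718). In phyB it differed from WT by 0.07 ± 0.10 (95% interval -0.14 to 0.27, adjusted p = 0.737). Both mutant comparisons use the same WT arrays. The comparison of phyAphyB with phyB shares no array with that of phyA with WT, and there PSAN was 1.46-fold lower (-0.55 ± 0.10, adjusted p = 0.00017). Between phyAphyB and phyA the difference was 0.05 ± 0.10 (interval -0.16 to 0.26, adjusted p = 0.798). PSAN was therefore called lower with the phyA mutation both on the WT and on the phyB background. These calls held in all alternatives run. For phyA against WT the log2 difference was -0.59 without dark phyA replicates 2 and 3, a fit in which dark phyA rests on replicate 1 alone.

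Directly between the single mutants, PSAN was 1.51-fold lower in phyA than in phyB (log2 -0.60 ± 0.10, limma adjusted p = 7.87e-05). The 6 phyA arrays, at 1476 to 2240.3, did not overlap the 6 phyB arrays, at 2335 to 3136, a separation that 7.16% of tested probe sets showed. PSAN was 1 of 5 genes called in this comparison, beside 18.5% of all tested probe sets. PSAE-1 differed in the same direction (-0.34 ± 0.15, adjusted p = 0.131). Without phyB red replicate 2 its adjusted p was 0.0495, and over the alternatives it ran from 0.0495 to 0.401.

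Taken by light condition, the PSAN estimates for phyA and phyAphyB were below WT in darkness and in red light alike. In the dark the log2 difference was -0.58 ± 0.14 in phyA (limma adjusted p = 0.0211), 0.07 ± 0.14 in phyB (0.868) and -0.41 ± 0.14 in phyAphyB (0.0621), with no overlap of arrays with WT in phyA and phyAphyB. In red light it was -0.48 ± 0.14 in phyA (adjusted p = 0.0701), 0.07 ± 0.14 in phyB (0.884) and -0.55 ± 0.14 in phyAphyB (0.00687), again with no overlap in phyA and phyAphyB. The dark phyA call was lost without phyA dark replicate 3 (log2 -0.58, adjusted p = 0.0668), WT dark replicate 2 (-0.54, 0.0813), WT dark replicate 3 (-0.55, 0.0794) or dark phyA replicates 2 and 3 together (-0.70, 0.109), and over its alternatives the adjusted p ran from 0.00165 to 0.109. The red phyAphyB call was lost without phyAphyB red replicate 2 (-0.41, 0.0678) or WT red replicate 2 (-0.45, 0.0556), in a range from 0.000235 to 0.0678.

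PSAE-1 encodes a stromal subunit of photosystem I at the side where ferredoxin docks. Its signals in WT were 1825 to 2658 in the dark and 1932 to 2337 in red light. The phyA arrays gave 1509 to 1938 in the dark and 1685 to 2560.3 in red light, and the phyAphyB arrays 1326 to 2331 and 1746 to 1856. In phyB they were 2119 to 2789 and 1865 to 3747. The widest spread of any group was that of phyB red, where replicate 3 read 3747 and the other arrays 2159 and 1865. None of the 3 mutants differed from WT by a call: averaged over light the log2 difference was -0.16 ± 0.15 in phyA (limma adjusted p = 0.62), 0.18 ± 0.15 in phyB (0.507) and -0.27 ± 0.15 in phyAphyB (0.216). In red light all 3 phyAphyB arrays lay below the WT arrays (log2 -0.24 ± 0.22, adjusted p = 0.518).

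The one call for PSAE-1 was between phyAphyB and phyB, at 1.37-fold lower in the double mutant (log2 -0.46 ± 0.15, limma adjusted p = 0.0301). This call did not hold in all alternatives. It was lost on leaving out phyAphyB dark replicate 3 (log2 -0.34, adjusted p = 0.106), phyAphyB red replicate 1 (-0.46, 0.0507), phyAphyB red replicate 3 (-0.44, 0.0571), phyB dark replicate 2 (-0.42, 0.0703), phyB dark replicate 3 (-0.44, 0.0633) or phyB red replicate 3 (-0.31, 0.12). Over all its alternatives the adjusted p ran from 0.00939 to 0.12, and the direction was the same in each.

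PSBY encodes a precursor that is processed into small thylakoid membrane proteins associated with photosystem II. In the dark its signals were 4012, 4581.5 and 4829 in WT, 5029, 3707 and 3049 in phyA, 3474, 4029.6 and 3737 in phyB, and 3283, 3178 and 2549.9 in phyAphyB. In red light they were 4945, 5201 and 4393 in WT, 4574, 4868 and 3554 in phyA, 3962, 3649.8 and 5266 in phyB, and 3040.2, 3132.5 and 3591 in phyAphyB. The 6 double mutant arrays, at 2549.9 to 3591, all lay below the 6 WT arrays, at 4012 to 5201, and 11.2% of tested probe sets separated these genotypes as fully. Arrays of both single mutants overlapped those of WT and of phyAphyB.

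Averaged over light, PSBY was 1.49-fold lower in phyAphyB than in WT (log2 -0.58 ± 0.11, limma adjusted p = 0.000381), and it kept this call in all 21 alternatives, with log2 values from -0.62 to -0.52. The single mutants differed from WT by -0.19 ± 0.11 (phyA, adjusted p = 0.356) and -0.22 ± 0.11 (phyB, adjusted p = 0.22). Without dark phyA replicates 2 and 3, which leaves replicate 1 alone in dark phyA, the phyA value was 0.00. The lowest limma adjusted p of the phyA difference over its alternatives was 0.0565. PSBY was also lower in the double mutant than in phyA (-0.38 ± 0.11, adjusted p = 0.0184) and than in phyB (-0.36 ± 0.11, adjusted p = 0.0223), while phyA and phyB differed by 0.03 ± 0.11 (interval -0.20 to 0.26). The calls for PSBY thus all involved the double mutant, whereas PSAN was called in phyA as well. In a test added after these values had been seen, the double mutant's difference minus the sum of both single mutants' was -0.16 ± 0.16 for PSBY (interval -0.49 to 0.17, adjusted p = 0.591) and -0.02 ± 0.14 for PSAN (adjusted p = 0.959). Departures from additivity were called for 0 of the 5 genes with limma, beside 11% of tested probe sets, and 1 of the 5, RCA (0.37 ± 0.16, limma adjusted p = 0.155), had an unadjusted p under 0.05, beside 23.9%.

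The PSBY calls between mutants did not hold in all alternatives. The one with phyA was lost without phyA dark replicate 1 (log2 -0.29, limma adjusted p = 0.0591), phyA red replicate 2 (-0.34, 0.0548) or phyAphyB dark replicate 3 (-0.33, 0.0574), in a range of adjusted p from 0.00182 to 0.0591. The one with phyB was lost without phyAphyB dark replicate 3 (-0.30, 0.0696), phyAphyB red replicate 1 (-0.33, 0.0538), phyB dark replicate 2 (-0.33, 0.0534) or phyB red replicate 3 (-0.28, 0.0841), in a range from 0.0129 to 0.0841.

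In darkness PSBY was lower in phyAphyB than in WT by -0.58 ± 0.16 (limma adjusted p = 0.0174) and in red light by -0.57 ± 0.16 (adjusted p = 0.0123). Both estimates were thus close to each other, and the difference of the responses is given below. The dark call was lost without phyAphyB dark replicate 3 (-0.47, 0.109), WT dark replicate 2 (-0.56, 0.0597) or WT dark replicate 3 (-0.52, 0.0816), in a range of adjusted p from 0.00144 to 0.109. The red call was lost without phyAphyB red replicate 1 (-0.53, 0.0542) or WT red replicate 2 (-0.52, 0.057), in a range from 0.00212 to 0.057.

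PSBW encodes a small membrane subunit of photosystem II that stabilizes its supercomplexes with the antenna. Its signals ran from 3383 on a dark phyAphyB array to 5668 on a red phyB array. They covered 4143 to 5617 in dark WT, 4097 to 4899 in red WT, 3383 to 4644 in dark phyAphyB and 4153 to 4901 in red phyAphyB. Group means were 4182 to 5076 over the 8 groups, the narrowest between-group range of the 5 genes, at 0.28 on the log2 scale. Averaged over light the differences from WT were -0.15 ± 0.11 in phyA (interval -0.38 to 0.08), -0.01 ± 0.11 in phyB (-0.24 to 0.22) and -0.14 ± 0.11 in phyAphyB (-0.37 to 0.09), with limma adjusted p of 0.49, 0.963 and 0.427. PSBW was called in no contrast of genotype or light.

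RCA encodes Rubisco activase, a plastid ATPase that frees Rubisco of tightly bound sugar phosphates. Plants make a long and a short form from this gene by alternative splicing, and 3 RefSeq proteins are listed for it, so its single probe set gives 1 signal that was not resolved by isoform here. In WT the signals were 5139, 4212 and 5345 in the dark and 5142, 6006 and 5682 in red light. In phyB they were 3524, 3969 and 3959 in the dark and 5187, 3989 and 5472 in red light. The phyA arrays gave 3608 to 4812 and 3133 to 5125, and the phyAphyB arrays 3687 to 5239 and 3941 to 4659. The highest array of all, at 6006, and the highest group mean, 5609.9 ± 436 (SD, n = 3), belonged to WT in red light.

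Averaged over light, RCA was below WT in each mutant without reaching a call. The log2 difference was -0.35 ± 0.11 in phyA (limma adjusted p = 0.0742), -0.28 ± 0.11 in phyB (0.108) and -0.26 ± 0.11 in phyAphyB (0.107), which share the WT arrays. The phyA difference passed without phyA dark replicate 1 (log2 -0.41, adjusted p = 0.0295) or phyA red replicate 2 (-0.42, 0.0306), and was -0.22 (0.456) without dark phyA replicates 2 and 3, in a range from 0.0214 to 0.456. Among themselves the mutants differed by -0.06 to 0.09. In red light all phyA arrays and all phyAphyB arrays lay below the WT arrays (-0.43 ± 0.16, adjusted p = 0.206, and -0.41 ± 0.16, adjusted p = 0.0901), and in the dark all phyB arrays did (-0.35 ± 0.16, adjusted p = 0.237). In red phyAphyB RCA passed with array weights (-0.43, adjusted p = 0.0226) and in a fit of only these groups (-0.41, 0.0158), in a range from 0.0158 to 0.239.

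**Figure D2:**
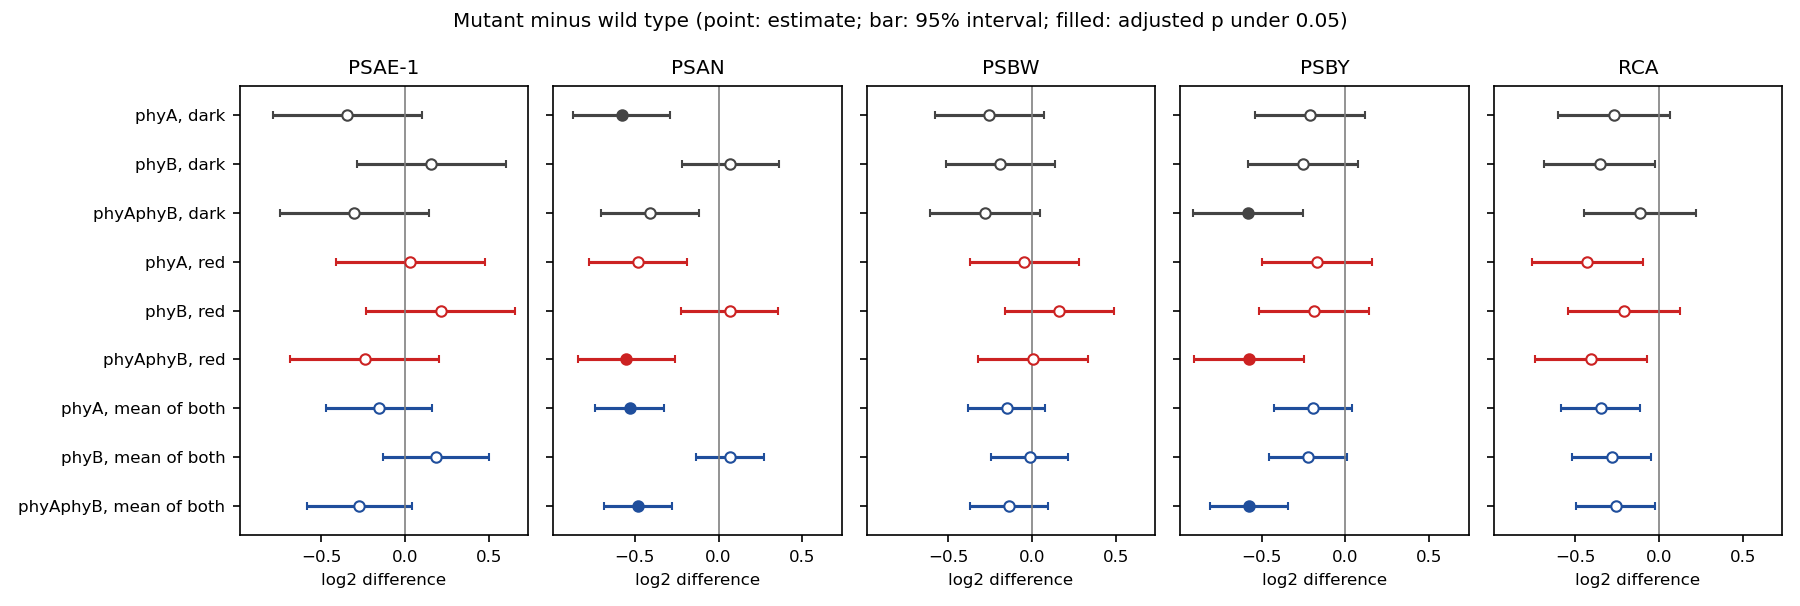
Points are log2 differences from WT with 95% intervals (horizontal axis) for each mutant in the dark (grey), in red light (red) and over both (blue), with filled points for an adjusted p under 0.05. PSAN was called lower in phyA (-0.53) and phyAphyB (-0.48) over both conditions and PSBY in phyAphyB (-0.58), while every point of phyB is open.

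Set against the whole array, the counts of these genes were as follows. In the dark 1 of 5 was called in phyA, beside 4.52% of tested probe sets, 0 in phyB beside 7.23%, and 1 in phyAphyB beside 11.2%. In red light 0 were called in phyA beside 2.59%, 0 in phyB beside 7.03% and 2 in phyAphyB beside 17.3%. At an unadjusted p under 0.05 limma gave 1 gene in dark phyB, 2 in red phyA and 0 in red phyB, beside 18.3%, 12.8% and 18.1% of tested probe sets. Averaged over light 1 was called in phyA beside 6.06%, 0 in phyB beside 14.4% (1 at an unadjusted p under 0.05, beside 25.8%) and 2 in phyAphyB beside 24%. Between mutants 1 of 5 was called for phyAphyB against phyA, beside 17.4%, and 3 for phyAphyB against phyB, beside 24.1%. All calls were towards a lower signal in the line with more mutations or, between single mutants, in phyA.

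The 5 estimates of phyA against WT and of phyAphyB against WT averaged over light were all below 0, with medians of -0.19 and -0.27 beside medians of 0.02 and 0.01 over all tested probe sets. In phyB 2 of 5 were above 0 and the median was -0.01, beside 0.01. Because the 5 genes moved together among arrays, as given below, their signs are not independent. Arrays did not overlap with WT for a share of all tested probe sets of 21.6% in dark phyA, 23.4% in dark phyB, 28.3% in dark phyAphyB, 18% in red phyA and 34.4% in red phyAphyB, so the separations given above for single genes are common on this array.

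The response to 1 h of red light was small in all 5 genes. In WT the log2 change was 0.20 ± 0.14 for PSAN, -0.08 ± 0.22 for PSAE-1, 0.12 ± 0.16 for PSBY, -0.19 ± 0.16 for PSBW and 0.20 ± 0.16 for RCA. With limma 0 of the 5 genes were called in WT, beside 6.45% of tested probe sets, and 0 had an unadjusted p under 0.05, beside 17.8%. Neither was any of them called in phyA, beside 4.34%, in phyB, beside 5.75%, or in phyAphyB, beside 0.305%. At an unadjusted p under 0.05 there were 1, 1 and 0 genes in these lines, beside 17.3%, 16.4% and 4.9% of tested probe sets. Those were PSAN in phyA (0.30 ± 0.14, limma adjusted p = 0.274) and RCA in phyB (0.34 ± 0.16, limma adjusted p = 0.286). In both cases the red arrays lay above all dark arrays, as for 18.7% of tested probe sets in phyA and 21.7% in phyB, in either direction.

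The precision was enough to bound these changes. All 20 of the 95% intervals, for 5 genes in 4 genotypes, lay between 0.697-fold and 1.67-fold, so that a change of 2-fold in either direction lay outside each of them. On the same arrays HYH, a bZIP factor related to HY5, read 6.6 to 56.6 on the 12 dark arrays, which is below the 40th percentile of each array (97.4 to 127.2), so no fold of its red response is given. After red light it read 201.5 to 235.8 in WT (limma adjusted p = 0.000235) and 178.4 to 226.5 in phyB (0.00213), 50.4 to 121.9 in phyA (0.053) and 24.6 to 41.9 in phyAphyB, where it was not called (adjusted p = 1).

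Averaged over the 4 genotypes, which sets 12 arrays against 12, the change was 0.19 ± 0.07 for PSAN, 0.14 ± 0.08 for PSBY, 0.12 ± 0.08 for RCA, 0.05 ± 0.11 for PSAE-1 and 0.03 ± 0.08 for PSBW. With limma 0 of 5 were called, beside 11.6% of tested probe sets, and 1, PSAN, had an unadjusted p under 0.05 (adjusted p = 0.0884), beside 23.5%, at 1.14-fold with an interval of 1.03 to 1.26. Without phyAphyB red replicate 2, PSAN passed (log2 0.23, adjusted p = 0.0316), and over the alternatives its adjusted p ran from 0.0316 to 0.169. All 5 estimates were above 0, with a median of 0.12 beside -0.01 over all tested probe sets. Taken per genotype, 15 of 20 estimates were above 0. The share of all tested probe sets above 0 was not computed. The 5 genes moved together among arrays, as given below, so these signs are not independent.

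Whether a mutant responded differently from WT was tested as a difference of responses. For phyA 0 of 5 were called, beside 0.663%, for phyB 0 of 5, beside 0%, and for phyAphyB 0 of 5, beside 1.87%, and limma gave 0 of the 5 genes at an unadjusted p under 0.05 in each, beside 12%, 4% and 9.47%. For phyB no probe set of the array passed, and the alternatives called 0 to 1. An unadjusted p under 0.05 was found for 604 probe sets (4%), a share no larger than that cutoff. The estimates for PSAN were 0.10 ± 0.20 (phyA), -0.01 ± 0.20 (phyB) and -0.14 ± 0.20 (phyAphyB), and for PSBY 0.04 ± 0.22, 0.06 ± 0.22 and 0.00 ± 0.22. The intervals were wide, that of PSAE-1 in phyA reaching a 2.01-fold larger response, so differences of responses below that size were not resolved for every gene. For PSBY the phyA response was 0.16 ± 0.16 and turned to -0.23 without dark phyA replicates 2 and 3, which leaves replicate 1 alone in dark phyA.

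**Figure D3:**
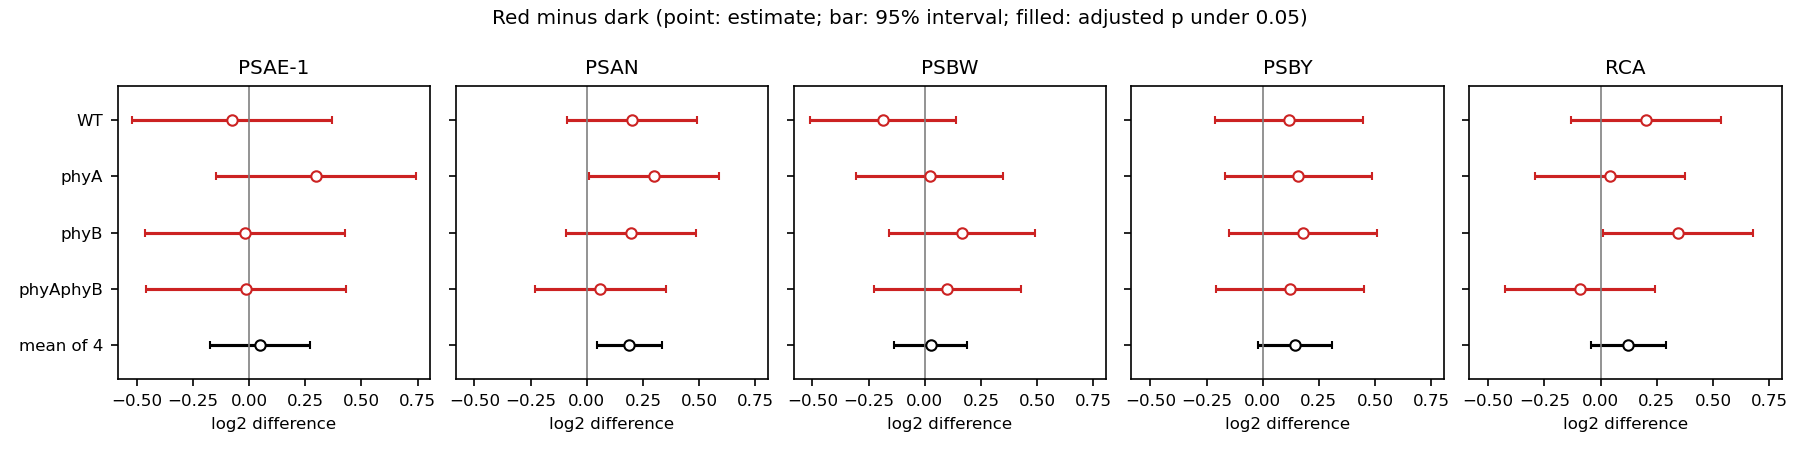
Points are red minus dark log2 differences with 95% intervals (horizontal axis) for the 4 genotypes in red and their mean in black. No point is filled, since no adjusted p was under 0.05, and all intervals lie between 0.697-fold and 1.67-fold (log2 -0.52 to 0.74).

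Related photosynthesis genes were looked up in 8 lists of 103 genes in all, chosen with earlier results of these data known. Most list members had no probe set paired with a single gene here. Besides the 5 genes above, 10 were tested, and plastid-encoded genes gave 0 of 8. In phyAphyB against WT, averaged over light, 5 of these 10 were called lower, 1 higher and 4 not called, beside 24% of tested probe sets called in either direction, with a median log2 difference of -0.56. Called lower were LHCB4.2 (log2 -1.45 ± 0.13, limma adjusted p = 8.88e-09) and LHCB4.1 (-0.66 ± 0.08, 5.47e-07), which encode the minor antenna protein CP29 of photosystem II, and PSB27 (-0.995 ± 0.092, 8.96e-09), an assembly and repair factor of photosystem II. PRK, the phosphoribulokinase of the Calvin cycle, was lower by -0.56 ± 0.09 and ATPC1, the gamma subunit of the plastid ATP synthase, by -0.55 ± 0.09. HYH differed by -1.16 ± 0.45 without a call (limma adjusted p = 0.0626, from 9e-04 to 0.166 over its alternatives). Its dark signals and its red phyAphyB signals (24.6 to 41.9) were all below the 40th percentile, so the size is uncertain. It passed with a pseudocount of 32 (-0.91, adjusted p = 9e-04), array weights (-1.08, 0.0356) and the compared groups alone (-1.16, 0.0478). It also passed without WT dark replicate 2 (-1.48, 0.0159). The reductions of PSAN (-0.48) and PSBY (-0.58) in the double mutant were near the estimates of PRK and ATPC1.

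In phyA 3 of the 10 were called lower and 7 not called, beside 6.06% of tested probe sets called, with a median of -0.30. PSB27 was lower by -0.63 ± 0.09 (limma adjusted p = 8.08e-05), PRK by -0.34 ± 0.09 (0.0216) and LHCB4.1 by -0.32 ± 0.08 (0.0172). The PRK call was lost in 8 of 22 alternatives, with adjusted p up to 0.241, the value without dark phyA replicates 2 and 3 (log2 -0.25). The single arrays whose absence ended it were phyA dark replicates 2 (-0.31) and 3 (-0.32), phyA red replicate 3 (-0.26), WT dark replicate 3 (-0.30) and WT red replicates 1 (-0.32) and 3 (-0.33). The LHCB4.1 call was lost in 5 of 22, with adjusted p up to 0.251, again without dark phyA replicates 2 and 3 (-0.21), and without phyA dark replicates 2 (-0.30) or 3 (-0.28) or WT red replicates 1 (-0.29) or 3 (-0.29). In phyB 2 of 10 were called lower, PSB27 (-0.48 ± 0.09, 0.000488) and LHCB4.1 (-0.40 ± 0.08, 0.000824), beside 14.4%, with a median of -0.04. Beside PSAN, then, PSB27 was the gene of these lists whose reduction in phyA held in every alternative run, and it was also lower in phyB, where PSAN was not called.

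LHCB4.3, another CP29 gene, was higher in phyAphyB (log2 0.32 ± 0.11, limma adjusted p = 0.0412), a call lost in 14 of 21 alternatives with adjusted p up to 0.157. Among these were the fits without 1 of phyAphyB dark replicates 1 (0.29) and 3 (0.25), phyAphyB red replicates 1 (0.25) and 3 (0.33), WT dark replicates 1 (0.31) and 3 (0.30) and WT red replicates 2 (0.33) and 3 (0.28). The response to red averaged over genotypes was called higher for 3 of the 10, beside 11.6% of tested probe sets called, namely HYH (by the signals given above), TRXF2 for a thioredoxin f that activates Calvin cycle enzymes in light (0.45 ± 0.12, adjusted p = 0.011) and LHCB4.2 (0.31 ± 0.09, 0.0321), the last lost in 12 of 33 alternatives with adjusted p up to 0.106. The LHCB4.2 call ended without 1 of WT dark replicate 1 (0.27), WT red replicate 2 (0.29), phyA dark replicate 3 (0.29), phyA red replicate 2 (0.29), phyB dark replicate 1 (0.28), phyB red replicate 3 (0.26), phyAphyB dark replicate 3 (0.26) or phyAphyB red replicates 1 (0.29) and 3 (0.30). The other 7, PSB27, LHCB4.1, PRK and ATPC1 among them, were not called, as with PSAN, PSAE-1, PSBY, PSBW and RCA. ATPC1 passed without phyA red replicate 3 (0.18, adjusted p = 0.035).

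**Figure D4:**
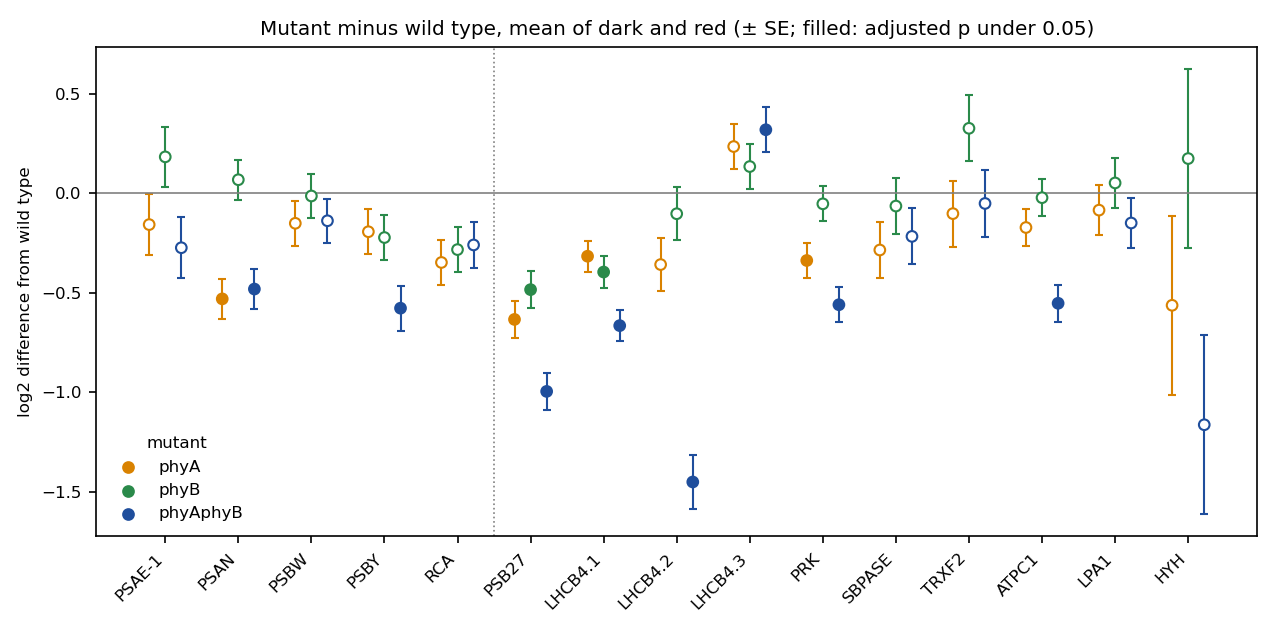
Points are log2 differences from WT averaged over dark and red (vertical axis, bars ± SE) in phyA, phyB and phyAphyB, for the 5 genes left of the dotted line and 10 other photosynthesis genes right of it, filled where the adjusted p was under 0.05. Among filled points LHCB4.2 (-1.45) and PSB27 (-0.995) lie lowest in phyAphyB, HYH (-1.16, open) rests on dark signals below the 40th percentile, and PSAN (-0.48) and PSBY (-0.58) lie near PRK (-0.56) and ATPC1 (-0.55).

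The 5 genes also moved together among arrays of the same group. For each gene the array's deviation from its group mean was taken on the log2 scale, and Pearson's r over the 24 arrays was above 0 for all 10 gene pairs, from 0.305 (PSAN with PSBY) to 0.838 (PSAE-1 with PSBY), with a median of 0.649. These points share arrays and their scaling, and no test was made. The same measures were not computed for other probe sets, so the shared movement is not shown to be particular to these genes. On 11 of 24 arrays all 5 deviations had one sign, above the group mean on 6 and below it on 5. The mean deviation was lowest on phyA red replicate 3 (-0.31), phyAphyB dark replicate 3 (-0.29) and phyB red replicate 2 (-0.24), and highest on phyB red replicate 3 (0.28) and phyA red replicate 2 (0.21). Several of these arrays are among those on which single calls of PSAE-1 and PSBY turned, and the part of these shared shifts in those calls was not tested.

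**Figure D5:**
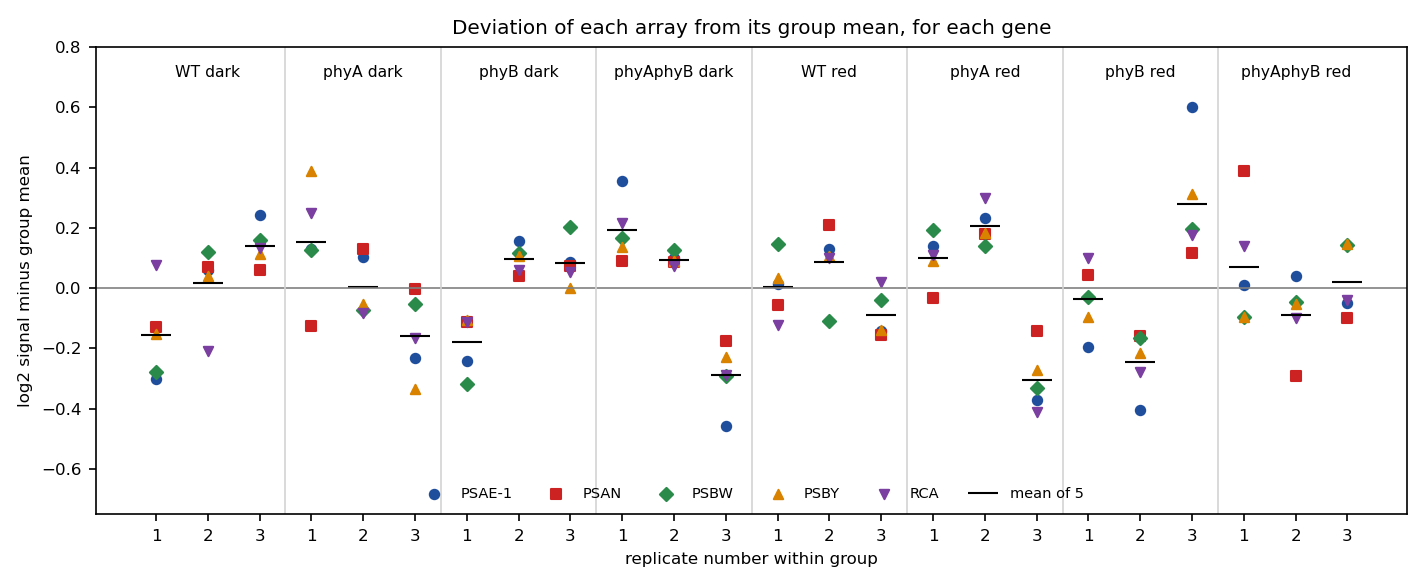
Each symbol is the log2 signal of a gene on 1 array minus the mean of its group (vertical axis), with arrays ordered by group and replicate number and a black line at the mean of the 5 genes. The means run from -0.31 (phyA red replicate 3) to 0.28 (phyB red replicate 3), and the 5 symbols lie on one side of 0 on 11 of 24 arrays.

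Over the 8 group means, Pearson's r between members ran from 0.130 (PSAE-1 with RCA) to 0.852 (PSAE-1 with PSAN), a description over 8 points. Of all tested probe sets with a single gene, the patterns most like that of PSAN over those points were AT2G44300 (r = 0.987), AT1G10650 (0.985) and AT1G05070 (0.960). For PSBY they were GME, an enzyme of ascorbate synthesis (r = 0.984), AT5G01020 (0.973) and AT1G09130 (0.966). For RCA they were JAL33 (0.956), AT5G35400 (0.943) and AT5G40920 (0.924), for PSAE-1 ATOEP16-4 (0.977), AT3G18280 (0.972) and AT5G40020 (0.953), and for PSBW AT2G01060 (0.946), AT2G20740 (0.914) and AT5G66820 (0.903). Over single arrays, r of these named genes was 0.618 to 0.877 for PSAN, 0.271 to 0.926 for PSBY and 0.173 to 0.654 for RCA. For PSAE-1 it was 0.234 to 0.532 and for PSBW 0.0924 to 0.374. RCA, PSAE-1 and PSBW had also not passed the test for any difference among the 8 groups. The search kept the highest r among all such probe sets with 8 points each, so high values are a product of the search. Most photosystem genes of the lists had no paired probe set, so their absence here carries no information.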

How the data were processed

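The deposited values are intensity values, 1 linear signal per probe set and array, made with MAS5 per the submitters' processing notes, which give no version here. The mean after trimming 2% at each end was 500.04 on all 24 arrays, so the scaling was kept. MAS5 scaling assumes the same mean signal in every sample. Detection calls and scanner files were not used here, and for arrays the number of samples, 3 per group, limits the precision. No column was left unmapped (0).

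After 64 control probe sets were set aside, testing was limited to the 15085 probe sets above their array's 40th percentile on at least 3 arrays. The log2 signal, without pseudocount, was fitted with 1 mean per group over all 24 arrays in limma (version 3.58.1, under R 4.3.3), with moderated variances that followed an intensity trend. A call needed an adjusted p under 0.05 in a two-sided test (Benjamini-Hochberg, over everything tested). The series' design text calls the samples biological replicates, and the p-values measure the spread between them. The procedure was tested on simulated data.

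Symbols came from the platform annotation, updated through NCBI gene identifiers. Of the 22746 others than controls, 13513 had 1 gene, 503 had several and 8730 were unnamed. All 5 genes are named with values. Of each list, up to 3 called genes with the largest change are named, and for likeness the 3 highest correlations over the 8 group means. SBPASE and LPA1 complete the plot of related genes. Where a gene had more than 1 probe set, the brightest was taken. The members and lists were chosen with earlier results of these data known. No promoter or protein sequences were used here, so the planned motif search was not run. Coordinates are left out, since the build behind the probes is not stated.

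Alternatives were quantile normalization, median centring, a pseudocount of 32, no filter or one at the 60th percentile, no intensity trend, array weights, a fit of only the compared groups, a block for the replicate number, each array left out in turn, and dark phyA replicates 2 and 3 left out. Same-numbered arrays of different groups correlated in their deviations at -0.256 to 0.279 (84 pairs, 17 over 0.1), so the numbers were not treated as pairs. The test of non-additivity was added after the values had been seen.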

Additional observations from a re-analysis of the deposited data

Results flagged for a closer look

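The 25S ribosomal RNA control probe set, outside the measurement of the 5 genes, read 10507.9 on dark phyA replicate 2 and 13573.9 on dark phyA replicate 3. On the other 22 arrays it read 46.8 to 450, and 200.3 to 294.7 on the 3 dark WT arrays. Dark phyA replicate 1, at 98.7, lay in the lower range. Leaving out both keeps only replicate 1 in dark phyA, so effect sizes alone are given here for that fit. PSAN in phyA against WT averaged over light was then -0.59 on the log2 scale, beside -0.53 with them. RCA was -0.22, beside -0.35 with them (limma adjusted p = 0.0742). PSBY in dark phyA against WT was 0.17 without them and -0.21 with them (limma adjusted p = 0.474). On replicate 1 PSBY read 5029, above the other dark phyA arrays at 3707 and 3049.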

How the results depend on the processing

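Of 12 called differences of the 5 genes, 232 alternatives kept 206 calls, lost 26 and reversed 0. The 5 that held throughout were PSAN in phyA (log2 -0.59 to -0.48) and in phyAphyB (-0.58 to -0.41) against WT, in phyAphyB (-0.65 to -0.48) and phyA (-0.66 to -0.56) against phyB, and PSBY in phyAphyB against WT (-0.62 to -0.52), all averaged over light. Leaving out single arrays gave -0.56 to -0.31 for PSAE-1 in phyAphyB against phyB, -0.64 to -0.52 for PSAN in dark phyA, -0.75 to -0.41 for PSAN in red phyAphyB, -0.47 to -0.29 for PSBY in phyAphyB against phyA, -0.41 to -0.28 for PSBY in phyAphyB against phyB, -0.65 to -0.52 for PSBY in red phyAphyB and -0.66 to -0.47 for PSBY in dark phyAphyB, with the calls lost as given above. PSAE-1 in phyAphyB against phyB was also lost without the intensity trend (-0.46, limma adjusted p = 0.052). PSAN in dark phyA was lost with the compared groups alone (-0.58, 0.0508) and without dark phyA replicates 2 and 3 (-0.70, 0.109). The causes of these losses were not tested.

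Array weights, which give noisy arrays less influence, called the most. The number of the 5 genes called against WT went to 4 with them from 1 in dark phyA (PSAN, PSAE-1, PSBW and PSBY), to 1 from 0 in red phyA, to 2 from 1 in dark phyAphyB, to 2 from 1 in phyA over both conditions, to 1 from 0 in phyB over both, and to 3 from 2 in phyAphyB both in red light and over both. Over both conditions RCA passed with them in phyA (-0.35, adjusted p = 0.0214), phyB (-0.28, 0.0417) and phyAphyB (-0.24, 0.0483). Median centring gave 2 in phyA over both conditions. The compared groups alone gave 0 in dark phyA, 2 in dark phyAphyB, 1 in phyB over both and 3 in phyAphyB in red light and over both, and leaving out dark phyA replicates 2 and 3 gave 0 in dark phyA. Leaving out single arrays gave counts of 0 to 1 in dark phyA, 1 to 2 in phyA over both conditions, 0 to 1 in dark phyAphyB, 0 to 2 in red phyAphyB, 0 to 1 for the averaged red response, 0 to 1 for phyAphyB against phyA, 1 to 3 for phyAphyB against phyB and 1 to 2 for phyA against phyB. Over all tested probe sets the calls in dark phyA ran from 99 (compared groups alone) to 2771 (array weights) beside 682, in phyA over both conditions from 416 to 2014 beside 914, for the red response of phyA from 233 to 1233 beside 655, and for that of WT from 713 to 1758 beside 973. Array weights also gave 2827 beside 1694 in dark phyAphyB, 1699 beside 1090 in dark phyB, 2887 beside 1756 for the averaged red response, 1533 beside 867 for that of phyB and 107 beside 46 for that of phyAphyB. For the responses compared with WT, calls ran from 39 to 477 beside 100 in phyA and from 206 to 578 beside 282 in phyAphyB, and the lowest count in red phyB was 697 beside 1061. With a replicate block, PSAN in phyA against WT was -0.53 (limma adjusted p = 0.00254) and no call of the 5 genes changed. Deviations from the group mean were also correlated between groups and averaged by replicate number. This mean was highest for an array's own number, out of 3 numbers, on 8 of 24 arrays. Among 91 uncalled results with 1748 alternatives, 19 became calls and 104 changed sign, 11 of them with a move of more than the SE.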
